A study of Mus musculus with 8 samples.

Results

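Among the CTCF peaks of newborn mouse lens fiber cells, 5170 were off-loop fiber-only peaks. They lay on chromosomes 1 to 19, overlapped no CTCF peak of lens epithelium, had their summit more than 500 bp from both ends of every protein-coding gene, and overlapped no loop anchor of lens epithelium, lens fiber or embryonic stem (ES) cells. They were chosen by measured values, since a peak entered only if the epithelium list held no peak over it and no loop list held an anchor over it. Neither absence is a finding here. They made up 22.35% of the 23132 fiber peaks on these chromosomes, with a Wilson 95% interval of 21.8% to 22.9%. Of all 23132 peaks, 50% (11576) overlapped no epithelium peak, and this background was fixed by the rule, so nothing is read from it. The off-loop fiber-only peaks were 44.7% of those 11576 peaks.

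The study dissected lenses of CD-1 mice at P0.5 into epithelium and fiber cells and used v6.5 mouse ES cells, grown without feeders and with LIF, as a reference. CTCF ChIP-seq gave 1 peak list for each lens cell type from a collection of 200 lenses. Hi-C gave 1 list of loops and 1 list of topologically associated domains (TADs) for each of the 3 cell types, each merged over 2 replicates of 30 lens epithelium or fiber samples, or of ES cells. With 1 peak list per cell type there is no measure of the spread between animals, no difference below was tested, and the intervals cover counting error only. The fold enrichment of a peak is the read pileup at its summit over the local background, and read depth is unknown because the lists hold no read counts.

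CTCF is a zinc-finger protein that binds a long, partly conserved DNA motif. At many of its sites it halts the ring-shaped cohesin complex as cohesin extrudes DNA, and such sites form the anchors of chromatin loops and the borders of TADs. Other CTCF sites lie at promoters, within gene bodies or between genes with no called loop. Lens fiber cells arise from the epithelium, elongate, fill with crystallins and later lose their nuclei and organelles.

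No genome was at hand, so DNA could be read only where RefSeq start windows (GRCm38.p6, the sequence from 250 bases before to 50 after an annotated start of a protein-coding or lncRNA gene) held a summit. Such a window held the summit of 92 off-loop fiber-only peaks (1.78%), 62 at a start of a protein-coding gene and 30 at a start of a lncRNA gene. These starts lay inside the outer gene ends that the rule used, or belonged to lncRNA genes, which the rule did not use. The CTCF core was searched on both strands as CC, any 3 bases, AG, any 2 bases and GGC. It was present at 42 of the 92 peaks (45.7%, interval 35.9% to 55.8%), with its centre within 50 bp of the summit at 33 of the 42 and at a median distance of 26.5 bp. The 6 peaks of highest fold among those with the core within 50 bp of the summit are shown first, so their short distances follow from the choice. Peaks stronger than some of them were passed over. Dennd6b (fold 8.86) had its core 78.5 bp from the summit, and Tcf25 (8.74) had no match. Tdrd7 and Rpl38 follow because both genes are described below, and the 2 strongest peaks without a match come last. Each line gives the bases around a summit on the strand of the named gene, 5′ to 3′, with the match nearest to the summit in capitals. The Gzf1 window held another match on the other strand, which overlaps the marked one and is only partly in capitals.
Gm46850 (chr4:43382012-43382132, minus strand, fold 10): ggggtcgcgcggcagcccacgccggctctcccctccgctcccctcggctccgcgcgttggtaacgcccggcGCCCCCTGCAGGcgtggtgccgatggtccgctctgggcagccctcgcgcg
Galt (chr4:41756156-41756276, plus strand, fold 9.36): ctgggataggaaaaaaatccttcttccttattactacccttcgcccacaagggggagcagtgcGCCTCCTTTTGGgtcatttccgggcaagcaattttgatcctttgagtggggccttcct
Zfp786 (chr6:47830528-47830648, minus strand, fold 9.08): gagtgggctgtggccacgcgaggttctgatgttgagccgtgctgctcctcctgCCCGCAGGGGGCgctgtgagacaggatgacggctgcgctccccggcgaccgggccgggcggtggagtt
Gm16271 (chr10:86972061-86972181, plus strand, fold 8.48): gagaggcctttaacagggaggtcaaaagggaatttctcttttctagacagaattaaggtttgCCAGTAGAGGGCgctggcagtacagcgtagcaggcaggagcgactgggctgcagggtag
Gzf1 (chr2:148681024-148681144, plus strand, fold 8.32): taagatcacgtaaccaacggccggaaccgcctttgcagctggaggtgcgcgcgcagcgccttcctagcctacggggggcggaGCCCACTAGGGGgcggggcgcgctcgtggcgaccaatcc
Plcb3 (chr19:6969863-6969983, minus strand, fold 7.69): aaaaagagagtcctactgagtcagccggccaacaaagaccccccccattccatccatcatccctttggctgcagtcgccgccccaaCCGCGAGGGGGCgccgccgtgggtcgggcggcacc
Tdrd7 (chr4:45972110-45972230, plus strand, fold 7.22): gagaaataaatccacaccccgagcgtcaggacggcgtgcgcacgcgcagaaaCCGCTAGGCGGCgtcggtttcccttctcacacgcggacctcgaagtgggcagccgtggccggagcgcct
Rpl38 (chr11:114668383-114668503, plus strand, fold 6.64): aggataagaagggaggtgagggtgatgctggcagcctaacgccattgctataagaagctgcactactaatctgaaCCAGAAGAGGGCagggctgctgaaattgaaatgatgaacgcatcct
Gm31348 (chr1:159784034-159784144, minus strand, fold 9.4): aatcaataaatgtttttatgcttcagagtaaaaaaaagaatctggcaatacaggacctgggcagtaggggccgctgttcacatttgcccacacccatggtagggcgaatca
Exoc6b (chr6:85069472-85069592, minus strand, fold 8.79): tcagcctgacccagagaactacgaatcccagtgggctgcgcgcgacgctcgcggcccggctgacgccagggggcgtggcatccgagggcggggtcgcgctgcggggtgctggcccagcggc
The core lay 1.5 bp from the summit at Zfp786, 2.5 bp at Tdrd7, 7.5 bp at Gm16271, 8.5 bp at Galt, 16.5 bp at Gm46850, 20.5 bp at Rpl38, 27.5 bp at Gzf1 and 31.5 bp at Plcb3. Galt encodes galactose-1-phosphate uridylyltransferase of the galactose pathway, Plcb3 a phospholipase C, and Zfp786 and Gzf1 are zinc-finger genes. The absence of a match at Gm31348 and Exoc6b says only that these letters were not in those windows.

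The core was more frequent in windows under off-loop fiber-only summits than in windows without a fiber summit. Of the 101 windows that held such a summit (some summits lay in several windows), 46.5% (interval 37.1% to 56.2%) had it, against 7.56% (7.27% to 7.87%) of the 30340 windows with no fiber summit and 8.73% of all 31396 windows on chromosomes 1 to 19. The share was 40.9% (31.2% to 51.4%) in the 88 windows of fiber-only distal peaks at loop anchors, 29.7% (26.0% to 33.6%) in the 556 of fiber-only peaks at gene ends, and 56.8% (40.9% to 71.3%) in the 37 of shared distal peaks away from loops. Under the stricter core that began with CCA the share was 16.8% for off-loop fiber-only peaks and 25% for distal anchor peaks, so their order turned. The median G+C content was 61.7% under off-loop fiber-only summits and 52.7% in windows without a fiber summit. It was highest, 63.3%, in windows of fiber-only peaks at gene ends. The part of G+C content in the shares was not tested. Among windows of 55 to 70% G+C, the core was found in 53.4% of 58 (40.8% to 65.7%) under off-loop fiber-only summits. Without a fiber summit it was found in 10.9% of 10089 (10.3% to 11.5%). Peaks with the core had a median fold of 6.70 and those without it 5.79.

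**Figure D1:**
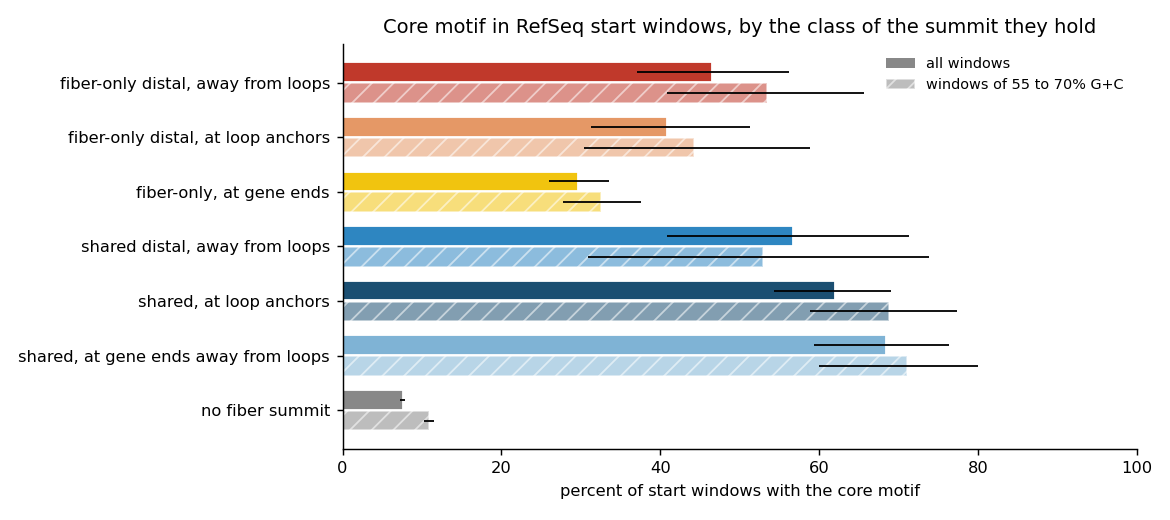
Percent of RefSeq start windows (300 bases) with the CTCF core, grouped by the class of the fiber peak summit they hold, for all windows (solid) and for windows of 55 to 70% G+C (hatched). Lines are Wilson 95% intervals, and the windows of off-loop fiber-only peaks (46.5%) lie above the windows without a fiber summit (7.56%).

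The off-loop fiber-only peaks had the lowest median fold of the classes of the fiber list. Their fold enrichment had a median of 5.39 (95% interval 5.35 to 5.45), with 10% of them below 4.15, 10% above 7.53 and a range of 1.67 to 14.1. The median was 5.76 for fiber-only peaks at gene ends, 5.95 for fiber-only distal peaks at loop anchors, 6.89 for shared distal peaks away from loops and 8.20 for shared peaks at loop anchors. On each of the 19 chromosomes the median of the off-loop fiber-only peaks lay below that of the distal anchor peaks and of the shared peaks away from loops. The median −log10 q was 5.80, against 7.73 and 10.4 in those classes. The width had a median of 225 bp, against 246 and 282 bp, and 21.7% of the off-loop fiber-only peaks had the smallest width in the fiber list, 188 bp, against 10.6% and 5.75%. A −log10 q above 10 was found for 869 of them (16.8%).

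With all fiber peaks split by fold into 10 groups of equal size, the share of off-loop fiber-only peaks was lower at every step. It was 45.3% (43.3% to 47.4%) in the lowest group, at folds up to 4.55, and 23.9% in the fifth. In the highest group, at folds from 10.3, it was 2.07% (1.57% to 2.74%). Shared peaks at loop anchors went the other way, from 5.53% to 62.9%. The share of fiber-only distal anchor peaks was 26.2% in the lowest group, reached 29.5% in the fourth and was 4.84% in the highest.

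**Figure D2:**
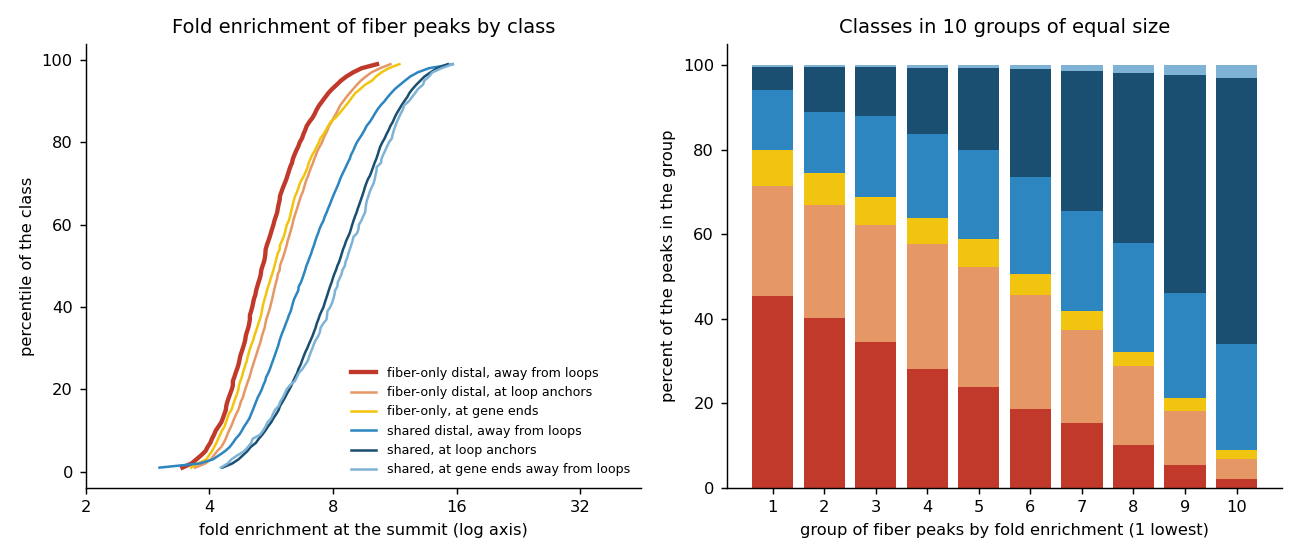
Left, fold enrichment (log axis) against the percentile of each class of fiber peaks. Right, percent of peaks of each class, in the same colors, in 10 groups of equal size of the fiber peaks on chromosomes 1 to 19, ordered by fold. The curve of off-loop fiber-only peaks (red) lies farthest left at its median of 5.39, and their bar shrinks from 45.3% to 2.07%.

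The 10 strongest off-loop fiber-only peaks had folds of 11.7 to 14.1 and lay 8.31 to 492 kb from the nearest epithelium peak. Their summits lay 0.84 (Lrrfip1) to 237 kb (near Gm9780) from the nearest loop anchor. The highest fold, 14.1, was at chr14:26047074-26047388, between genes and 4.49 kb from Gm9780. The next, also 14.1, was at chr1:56195250-56195616, 441 kb from Hsfy2, the nearest protein-coding gene. Peaks within genes followed at Lrrfip1 (chr1:91098995-91099284, fold 13.3), at Megf6 (chr4:154246464-154246794, 12.9) and at Mthfd2 (chr6:83316991-83317546, 12.6), which encodes a mitochondrial enzyme of folate metabolism. The peak at chr14:96954498-96954836 (12.4) lay 436 kb from Klhl1. Vwa7 held a peak at chr17:35021146-35021500 (12.3), and Camkmt, which encodes a calmodulin methyltransferase, held one at chr17:85189593-85189943 (12.1). The last of the 10 were intergenic, at chr7:35901845-35902172 (12.1), 99.0 kb from Zfp507, and at chr9:83691423-83691879 (11.7), 87.0 kb from Elovl4.

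About equal numbers of off-loop fiber-only peaks lay in and between protein-coding genes. The summit was within a gene at 2636 of them (51.0%, interval 49.6% to 52.4%). This compares with 47.9% (46.6% to 49.3%) of fiber-only distal anchor peaks and 44.4% (43.0% to 45.8%) of shared distal peaks away from loops, and the share exceeded the latter on 16 of 19 chromosomes. With genes of every biotype the share was 60.1%. The median fold was 5.40 within and 5.39 between genes. The median distance to a gene end was 20.3 kb, against 20.4 kb for shared distal peaks away from loops and 15.1 kb for fiber-only distal anchor peaks. A distance over 100 kb was found for 20.6%, 19.9% and 12.9% of the 3 classes. A RefSeq start window held 1.78% of the off-loop fiber-only summits and 0.675% of the shared distal summits away from loops, but also 1.64% (1.33% to 2.03%) of the fiber-only distal anchor summits.

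In all, 2232 of 20661 protein-coding genes (10.8%) held at least 1 off-loop fiber-only peak, 1894 of them exactly 1, 258 held 2 and 80 held 3 or more. Genes with 3 or more had a median length of 400 kb, against 17.5 kb for all genes. Prkag2, a regulatory subunit of the energy sensor AMPK, held the most, 6 peaks with folds of 3.96 to 6.09 over 244 kb. Genes with 5 were Rbms3, an RNA-binding protein (folds 5.02 to 8.27), Wwox, an oxidoreductase (4.52 to 7.70), Tacc2, a centrosomal coiled-coil protein (4.20 to 7.59), and Prkg1, the cGMP-dependent protein kinase (4.57 to 8.20). The others with 5 were Csmd2 (5.10 to 6.81), the phosphodiesterase gene Pde1c (4.71 to 6.46), the ion channel gene Asic2 (3.91 to 6.54), Dpp6, an accessory protein of potassium channels (3.77 to 5.90), and Tmem132c (4.36 to 5.31). These 9 ran from 215 kb (Tacc2) to 1201 kb (Prkg1). In Prkag2 all 6 peaks lay outside the middle of the gene, where the fiber peaks that overlapped an epithelium peak or an anchor were found. This place follows in part from the rule. Epithelium anchors covered 112 to 137 kb and 147 to 157 kb from the gene end with the lower coordinate.

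Several short genes, chosen after their values were seen, held 2 off-loop fiber-only peaks each. Actb, the cytoskeletal beta-actin gene (4.86 kb), held one of fold 7.02 (chr5:142905639-142906013) and one of fold 5.64 (chr5:142906601-142906869) and no other fiber peak. Rpl38, a ribosomal protein gene of 4.52 kb, held folds of 6.44 and 6.64, and Mylpf, a muscle myosin light chain gene of 5.44 kb, 4.77 and 4.81. Duxf3 (3.58 kb) and Speer4e (4.84 kb) had lower folds, 2.51 and 2.83 in the former and 2.86 and 4.19 in the latter. Both belong to families of near-identical copies, so their peaks are uncertain.

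Off-loop fiber-only peaks lay near most crystallin genes, which encode the main soluble proteins of fiber cells. Within 20 kb of the gene or inside it, 11 of 16 crystallin genes had such a peak, against 23.0% of all protein-coding genes. Inside the gene itself the count was 1 of 16, against 10.8% of all genes. The 11 genes shared 6 peaks, because neighbors in a cluster were counted with the same peak. Epithelium-only distal peaks away from loops, found by the same rule with the lists exchanged, were near 0 of the 16 crystallin genes and near 10.6% of all genes. They were also near 0 of the 16 lens transcription factors, and near 3 of the 16 genes of fiber membrane, cytoskeleton and organelle loss. Epithelium-only peaks at gene ends or anchors were not counted. An epithelium peak with no fiber peak over it lay inside Crybb2, on a loop anchor of epithelium and ES cells. Other fiber-only peaks, at gene ends or anchors, were near 5 of the 16 and near 32.5% of all genes. These lists and distances were set with earlier results on crystallin loci known, so the counts are no independent evidence.

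The crystallin peak with the smallest q-value lay inside Crybb3 (chr5:113078749-113079035), with a fold of 6.61 and a −log10 q of 28.8. It was the only fiber peak in that gene, and it also lay within 20 kb of Crybb2. The peak 3.95 kb from Cryaa, the alpha A-crystallin gene (chr17:31685551-31685830), had a fold of 4.41 and a −log10 q of 12.8. The summits at Crybb3 and Cryaa lay 3.9 and 4.3 kb from the nearest loop anchor. Neither peak would meet the rule with anchors widened by 5 kb. The gamma-crystallin genes Crygb, Crygc, Crygd and Cryge shared 1 peak 0.684 kb from an end of Crygc (chr1:65070685-65070877, fold 4.07, −log10 q 4.18). Cryba4 and Crybb1 shared a peak 1.70 kb from Crybb1 (chr5:112271123-112271361) of fold 2.74, one of the lowest. Near Cryab the peak was inside the neighboring gene Dixdc1 (chr9:50735064-50735308, fold 8.31), and near Cryba2 it was inside Cfap65 (chr1:74915931-74916118, fold 5.17).

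Among peaks of like fold, a smaller q-value can reflect a higher local background. The −log10 q at Cryaa was 3.61 times the median of the 659 off-loop fiber-only peaks whose fold was within 5% of its own (3.55), and that at Crybb3 was 3.25 times the median of 538 such peaks (8.87). A peak in Timeless within 20 kb of Mip (chr10:128232720-128233015, fold 3.65) had a ratio of 3.27. At Crygc the ratio was 1.44, at Cryba2 1.05 and at Cryab 1.00. The peak near Crybb1 and the other peak in Timeless had ratios of 0.806 and 0.701, each over 9 peaks of like fold. Of 5120 off-loop fiber-only peaks with at least 20 others of like fold, 32 exceeded 2 times the median. RNA and RNA polymerase were not measured in these files, and the part of local background in these peaks was not tested.

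**Figure D3:**
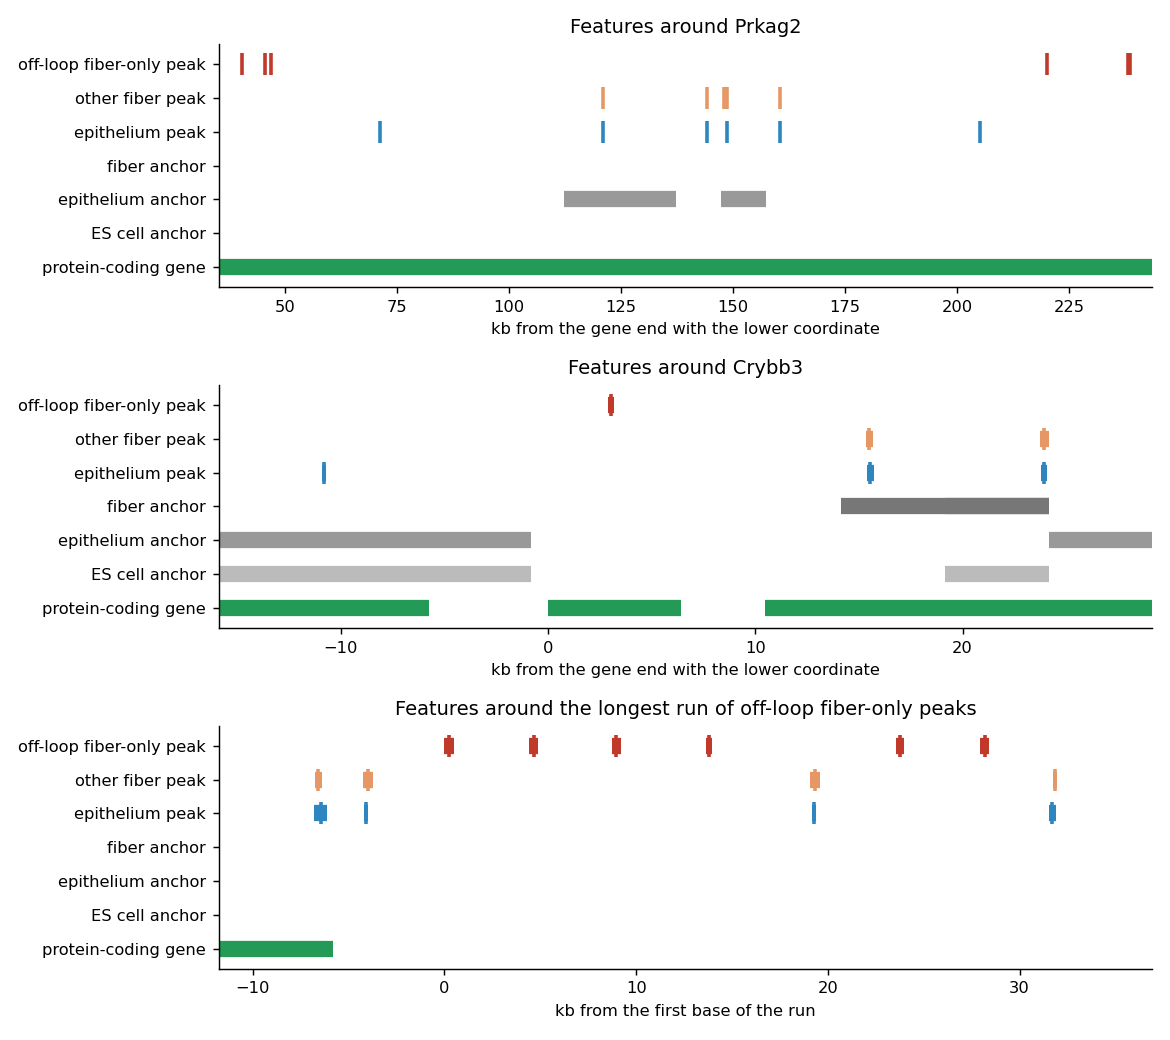
CTCF peaks (vertical marks), loop anchors of the 3 cell types and protein-coding genes (bars) around Prkag2, Crybb3 and the longest run of off-loop fiber-only peaks, with the distance in kb on the x axis. In Prkag2 the 6 peaks lie to the sides of the shared peaks, and Crybb3 holds 1 peak. The rule kept all off-loop fiber-only peaks off epithelium peaks and anchors. Inside the longest run lies a fiber peak that overlaps an epithelium peak.

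Of the genes of fiber membrane, cytoskeleton and organelle loss, 5 of 16 were near an off-loop fiber-only peak, and of the lens transcription factors 3 of 16, on either side of the 23.0% of all genes. Tdrd7, an RNA granule protein whose loss causes cataract, held one with a fold of 7.22 at an internal start (its sequence is printed above). Bfsp2, a subunit of the beaded filaments of fiber cells, held one of fold 5.26, 4.39 kb from a loop anchor. Bfsp1, its partner, had a peak of fold 4.98 within 20 kb, inside Pcsk2. Bnip3l, a receptor for mitophagy, had a peak of fold 7.13 at 0.808 kb. Mip, the aquaporin of fiber membranes, had 2 within 20 kb, both inside Timeless, with folds of 3.65 and 2.74. The transcription factor genes were Meis2 (inside, fold 5.31), Meis1 (3.92, at 0.817 kb) and Rarb (6.00, at 4.12 kb). The peak near Meis1 lay 0.468 kb from a loop anchor.

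Genes of other cell states held off-loop fiber-only peaks as well. In the lens epithelium list 2 of 8 genes were near one, again close to the 23.0% of all genes. Cdh1, the E-cadherin gene, held 2 (folds 5.09 and 4.43, the latter 0.218 kb from an epithelium peak) and had 2 more within 20 kb, inside Tango6 (6.78 and 6.88), and Krt5 had 1 within 20 kb, inside Krt6a (5.94). Besides Actb, the housekeeping list of 7 had a peak inside Hsp90ab1 (3.79) and 1 near Tubb5 (4.35), so that 3 of 7 genes were near one. None of 6 ES cell genes and 3 of 6 blood and vascular genes were near one, with 2 peaks inside Ptprc (5.44 and 4.11) and 1 each near Cdh5 (5.20) and Hba-a1 (4.81). These lists are short, and their counts were not tested against the 23.0% of all genes. A CTCF peak near a gene is no measure of its expression, which was not examined here, so the presence of blood cells was not tested. Of 6 CTCF and cohesin genes on these chromosomes, Stag1 (4.21) and Rad21 (5.85) held one each.

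Many off-loop fiber-only peaks lay between the anchors of a loop, since the rule kept them off the anchors only. Within the outer span of a fiber loop of up to 3 Mb were 46.8% (45.4% to 48.2%), against 42.0% (40.6% to 43.4%) of shared distal peaks away from loops, with the higher share on 16 of 19 chromosomes. Spans of epithelium loops held 47.9% and of ES cell loops 49.2%, against 44.0% and 44.5%. A span in at least 1 cell type held 65.6%, and fiber loops of any length held 65.9%. The median distance to the nearest anchor of any cell type was 30.7 kb, against 32.1 kb for the shared peaks, and 20.2% lay over 100 kb from any anchor. Up to 1 kb from an anchor were 3.79%, and between 1 and 5 kb were 11.3%, against 3.89% and 11.2% of the shared peaks. Peaks inside fiber loop spans had a median fold of 5.31 and those outside 5.48.

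TADs held a minority of these peaks. In a fiber TAD were 29.3% (28.1% to 30.6%), against 27.0% (25.7% to 28.2%) of shared distal peaks away from loops and 37.9% (36.5% to 39.2%) of fiber-only distal anchor peaks. The share exceeded that of the shared peaks on 12 of 19 chromosomes. TADs of epithelium held 23.3% of the off-loop fiber-only peaks and TADs of ES cells 34.5%. Within 10 kb of a fiber TAD border were 7.29%, against 8.06% and 26.0%. The 377 peaks at such borders had a median fold of 5.88 (5.65 to 6.09), and the other 4793 had 5.38 (5.31 to 5.42).

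**Figure D4:**
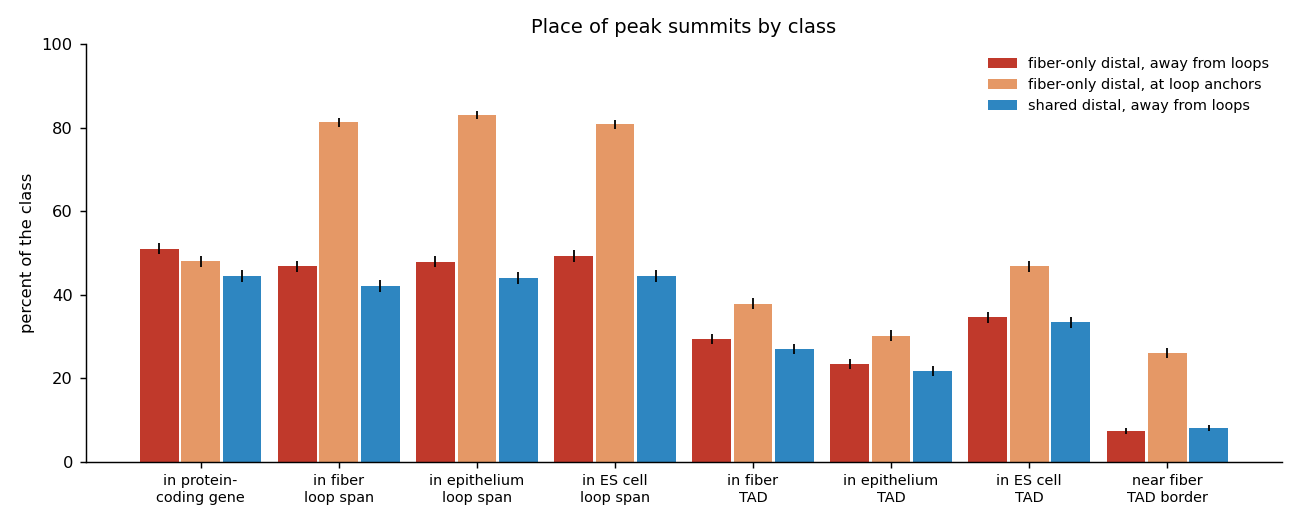
Percent of 3 classes of fiber peaks with their summit in a protein-coding gene, in a loop span of up to 3 Mb, in a TAD or within 10 kb of a fiber TAD border, with Wilson 95% intervals. Off-loop fiber-only peaks (red) lie above the shared peaks away from loops (blue) in genes (51.0% against 44.4%) and in fiber loop spans (46.8% against 42.0%), and the loop-span bars of the anchor class (orange) are high because its rule placed those peaks at anchors.

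Few off-loop fiber-only peaks had a close neighbor. Any other fiber peak lay within 5 kb of 436 (8.43%), against 10.6% of shared distal peaks away from loops and 18.8% of fiber-only distal anchor peaks. Another off-loop fiber-only peak lay within 5 kb of 187 (3.62%, interval 3.14% to 4.16%), in 87 pairs and 4 longer runs. Shared distal peaks away from loops had a peak of their own class as near in 5.89% (5.27% to 6.59%) and fiber-only distal anchor peaks in 7.73%. The nearest epithelium peak was at a median of 43.2 kb, against 31.0 kb for fiber-only distal anchor peaks, and lay within 1 kb of 71 (1.37%). Joined over gaps of up to 10 kb, the longest run was 6 peaks over 28.4 kb at chr6:47744119-47772493, near the Y RNA gene Rny3, with folds of 3.87 to 8.52 and −log10 q of 11.0 to 51.6, the highest of all. The −log10 q of the 6 peaks of this run was 3.51 to 6.57 times the median of off-loop fiber-only peaks of like fold. A fiber peak that overlapped an epithelium peak lay inside this run, 19.1 to 19.6 kb from its first base. Epithelium peaks also flanked the run on both sides. A run of 5 beside that longest run (chr6:47668130-47686265) had folds of 2.34 to 3.61. Other runs were 5 peaks next to Camk1g, a calmodulin-dependent kinase gene (chr1:193376794-193402011, 4.50 to 9.57), 4 at the Speer4e family (chr5:14918775-14936240, 2.77 to 4.19) and 4 at the ion channel gene Trpm4 (chr7:45305391-45325974, 4.05 to 6.58).

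Folds below 3 were found at 27 off-loop fiber-only peaks, and these were grouped. On chromosome 5, 4 lay at 14918775 to 14981444 and 6 at 15461647 to 15712047, around Speer genes. On chromosome 8, 5 lay at 20258039 to 20666114, on chromosome 6, 4 lay at 47668130 to 47685451, and Duxf3 held 2. At the start of the assembled chromosome 9, 2 peaks had the lowest folds, 1.67 and 1.75, with −log10 q of 7.69 to 13.4. The Speer and Duxf3 genes belong to families of near-identical copies, where read placement is uncertain. Among all 79 fiber peaks with a fold below 3, the off-loop fiber-only peaks were 34.2%, and among the 2712 with a fold of 10 or more they were 2.32% (63 peaks).

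Their share of a chromosome's fiber peaks ranged from 18.6% (15.9% to 21.7%) on chromosome 18 to 26.3% (24.2% to 28.6%) on chromosome 4. Chromosome 8 followed with 25.0% (22.7% to 27.5%). The other 16 chromosomes lay between 20.6% and 24.0%. The median fold per chromosome ran from 5.20 on chromosome 13 to 5.52 on chromosome 3.

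**Figure D5:**
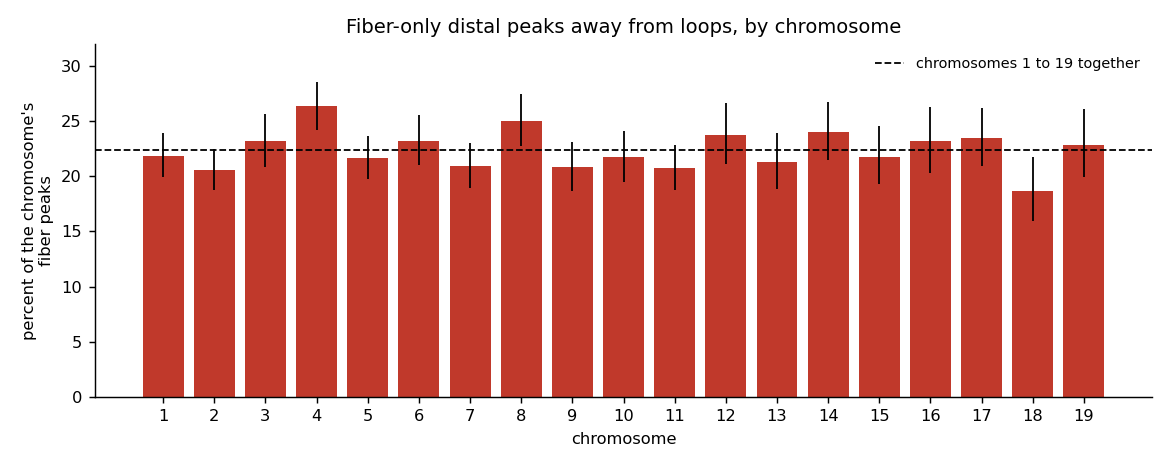
Off-loop fiber-only peaks as percent of all fiber peaks on each chromosome, with Wilson 95% intervals, and the share over chromosomes 1 to 19 (dashed line, 22.35%). Chromosome 18 is lowest at 18.6% and chromosome 4 highest at 26.3%.

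The exchange of the lists gave 3078 epithelium-only distal peaks away from loops. They were 72.6% (71.2% to 73.9%) of the 4242 epithelium-only peaks, whereas the off-loop fiber-only peaks were 44.7% (43.8% to 45.6%) of the fiber-only peaks. The median fold was 5.05 and the median width 222 bp in the epithelium-only class, against 5.39 and 225 bp, and 42.5% of them lay in a protein-coding gene, against 51.0%. The lists were called from separate libraries, whose depth cannot be told apart from cell type.

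Peaks at the limits of the rule had these values. The off-loop fiber-only peaks just beyond 500 bp of a gene end had summits 503 bp (in Nsmce4a, fold 3.58), 504 bp (in Ndufaf3, 5.81) and 506 bp (in LOC108168956, 10.3) from it. Just within the limit, at 500 bp each, were fiber-only peaks at 4930564D02Rik (6.18), Crmp1 (4.26) and Mrpl1 (8.43). The peaks nearest to an anchor had summits 0.06 kb (fold 5.39, nearest gene Dhrs2), 0.111 kb (4.11, Bmp2) and 0.113 kb (4.86, 1810024B03Rik) from it. The peaks nearest to an epithelium peak were 0.104 kb (3.72, Ltbp2), 0.144 kb (5.02, Muc16) and 0.169 kb (5.05, Pde4a) away.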

How the data were processed

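CTCF peaks and chromatin loops were taken from the lists deposited by the authors. Per the labels and the methods, ChIP-seq reads were aligned to mm10 with BWA, uniquely mapped reads were kept, duplicates were removed and peaks were called with MACS2, whose version, threshold and control are not given in the sources used here. In the deposited peak lists the fold enrichment is a ratio of pileup to local background, and the authors' MACS2 run gave the −log10 of a p-value and of a q-value. The methods speak of ChIP-seq replicates, but 1 list per cell type was used here. The authors called loops with HiCCUPS (juicer_tools 2.13.06) and TADs with Arrowhead from maps merged over 2 Hi-C replicates. Read depth of the ChIP-seq is unknown, so precision cannot be given per peak.

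Overlap meant at least 1 bp. Gene ends came from RefSeq GRCm38.p6, which shares the coordinates of mm10, and coordinates are counted from 1. Shares carry Wilson 95% intervals and medians carry 95% intervals from order statistics. Python 3.11.15, numpy 2.4.6, pandas 2.3.3, scipy 1.17.1 and matplotlib 3.10.9 were used. The interval and motif functions were tested on simulated data, and 10 of 10 checks gave the known answer.

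Named genes were the 10 with most off-loop fiber-only peaks (ties by summed fold), those at the 10 strongest peaks, genes of fixed lists with a peak inside or within 20 kb, and those at the limits of the rule. Outside these, runs, short genes, low folds and printed sequences were picked with their values in view. The peaks and lists were chosen with earlier results of these data known. Loop scores and TAD scores were not used here.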

Additional observations from a re-analysis of the deposited data

How the results depend on the processing

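No paired analysis was possible because each cell type has 1 peak list, and its loops and TADs were merged over both Hi-C replicates. For the same reason no replicate could be left out. The number of off-loop fiber-only peaks was 5170 and stayed between 4374 (anchors widened by 5 kb) and 6914 (anchors of fiber loops only) under 10 of 11 alternatives. It was 3228 with fiber peaks of −log10 q above 5, by construction of that limit. The median fold of 5.39 became 5.48 with −log10 q above 3 in both lists and 6.04 above 5 in the fiber list, and was 5.41 with sharing by summits within 100 bp. The share in a protein-coding gene (51.0%) became 60.1% with genes of every biotype and 54.7% with genes widened by 2 kb, and was 51.7% with −log10 q above 5. The share in a fiber loop span (46.8%) became 65.9% with all loops and 39.9% with loops up to 1 Mb. The share in a fiber TAD (29.3%) became 23.3% with epithelium TADs, 34.5% with ES cell TADs and 19.1% with fiber TADs of at least 200 kb. The share with another such peak within 5 kb (3.62%) became 1.74% for 2 kb and 7.04% for 10 kb. The share of start windows with the core (46.5%) became 25.7% when the core ended in any 1 base and GGGC and 16.8% when it began with CCA, against 3.22% and 2.47% of all windows, and against 20.5% and 25% of the windows of fiber-only distal anchor peaks, which the CCA core puts higher, both alternatives chosen after seeing the data. The search of the core around every summit (50, 100 or 200 bp to each side, or the whole peak) was not run, because no genome was given.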

Other observations

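On chromosomes left out by the rule, peaks that met its other conditions were 173 of 642 fiber peaks on chromosome X (26.9%) and 50 of 89 on chromosome Y (56.2%). The chromosome Y peaks lie on a chromosome rich in near-identical copies, where unique read placement is uncertain.

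Some ratios of −log10 q to the median of peaks of like fold were higher than those at Cryaa and Crybb3. The 6 peaks of the longest run (chr6:47744119-47772493) had ratios of 3.51 to 6.57, the highest at chr6:47748541. The lowest of these lay below that at Cryaa. The ratio was 5.41 at chr11:3124321, 7.44 kb from Sfi1. It was 5.00 at chr5:15507100, near the predicted gene Gm21190.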
